A study of Caenorhabditis elegans with 2 samples.

Results

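The kinetochore and centromere protein genes described here are knl-1, ndc-80, him-10, kbp-1, kbp-2, kbp-3, kbp-4, kbp-5, hcp-3 and hcp-4. They were taken by name, and all 10 were found in the Ensembl annotation of the WBcel235 genome, among 19973 protein-coding genes in all. Binding of EFL-1, an E2F-family transcription factor, had been mapped with chromatin immunoprecipitation and sequencing (ChIP-seq) in whole Caenorhabditis elegans larvae at the L1 stage. All larvae were of strain MT10430, which carries lin-35(n745), a mutation in the worm's retinoblastoma-family gene, and their sex is labelled as mixed, with male and female pooled. There was 1 group of 2 biological replicates, numbered 2 and 3, so no other genotype, stage or antibody was set against it.

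The kinetochore is the protein assembly that joins a chromosome to spindle microtubules during division. In worms it forms along the whole length of each chromosome, on centromeric chromatin that carries the histone H3 variant CENP-A (HCP-3 in the worm). CENP-C (HCP-4) reads that chromatin, and the KMN network built on it, made of KNL-1, the MIS-12 complex and the NDC-80 complex, holds the microtubule. E2F factors act with DP partners and pocket proteins at promoters of cell division genes, where they can activate or repress transcription.

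EFL-1 peaks lay just upstream of 9 of the 10 genes, kbp-2 being the exception. A gene was called bound when the summit of a peak of the authors' IDR list fell in a window around an annotated 5' end that began 1000 bp before it and ended 500 bp past it. The IDR list held 4534 peaks and is named for the irreproducible discovery rate, which compares how replicates rank their peaks. By the same rule 3922 of the 19973 protein-coding genes were bound, or 19.6%. With the 4534 strongest regions of replicate 2 alone 9 of 10 members were bound, beside 19.6% of all genes, and with those of replicate 3 alone 9 of 10, beside 19.4%. The genes were chosen with earlier results of these data known, so these counts are a description and carry no test.

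The stretches below show the DNA under or beside 7 of the summits, read in the direction of the member gene, because the short E2F-like and CHR-like patterns (CHR, the cell cycle homology region, is the element that MuvB complexes bind) stand close together in several of them. All are from the RefSeq sequence of WBcel235 (ce11) and lie between genes. Capitals mark matches of the E2F-like and CHR-like patterns and of the cores GCGCGC and CGCGAAA, whose values are given further on. Matches of the patterns added later, GAGTGCA or GAGCGCA and GCGTCTC, are left in lower case, and such matches lie in the stretches at knl-1, ndc-80, kbp-1 and hcp-3. The stretches at ndc-80, knl-1, kbp-3 and hcp-3 are centred on the joint summit, and that at kbp-1 also holds it. Those at kbp-4 and him-10 begin on the gene side of a joint summit that lies in the neighbouring gene.
ndc-80 (chrIV:10085824-10085944, plus strand): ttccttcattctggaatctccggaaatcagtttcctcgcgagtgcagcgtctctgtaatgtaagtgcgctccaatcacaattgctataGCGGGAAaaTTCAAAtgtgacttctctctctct
knl-1 (chrIII:8250416-8250536, plus strand): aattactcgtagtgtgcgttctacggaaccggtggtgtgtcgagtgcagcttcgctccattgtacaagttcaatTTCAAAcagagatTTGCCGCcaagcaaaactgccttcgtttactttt
kbp-4 (chrIII:1080776-1080818, plus strand): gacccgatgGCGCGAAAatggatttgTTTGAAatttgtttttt
him-10 (chrIII:5803161-5803215, plus strand): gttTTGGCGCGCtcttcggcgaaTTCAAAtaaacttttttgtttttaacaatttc
kbp-3 (chrII:14390143-14390263, minus strand): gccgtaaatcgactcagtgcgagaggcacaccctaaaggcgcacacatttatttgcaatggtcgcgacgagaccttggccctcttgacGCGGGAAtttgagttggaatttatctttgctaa
kbp-1 (chrIII:6869461-6869547, plus strand): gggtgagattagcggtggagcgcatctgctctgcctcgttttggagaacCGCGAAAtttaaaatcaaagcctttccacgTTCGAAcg
hcp-3 (chrIII:9616566-9616686, minus strand): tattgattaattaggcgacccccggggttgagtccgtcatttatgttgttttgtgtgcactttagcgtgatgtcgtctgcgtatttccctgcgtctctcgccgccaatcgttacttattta

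The NDC-80 complex, which makes the microtubule contact, held the strongest member peak, at kbp-4, and peaks down to rank 2159, at him-10. At kbp-4, which encodes the worm's Spc24-like subunit, the peak had a signal value of 1708 and ranked 77 of 4534 (chromosome III, 1080595 to 1080912). Its signal was 1079 in replicate 2, where it ranked 71, and 634 in replicate 3, where it ranked 96. The signal value is the authors' own, on the scale of their peak caller, and is used here only to rank peaks within a list. The kbp-4 summit, at -143 bp from its 5' end (negative distances are upstream), lay in an exon of rab-18, a Rab GTPase gene on the other strand, outside the coding part and 17 bp into that gene. It also fell in the window of par-2, a cell polarity gene whose 5' end is 500 bp downstream of that of kbp-4.

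At ndc-80, named for the complex's microtubule-binding subunit, the peak ranked 250, with a signal value of 902 (chromosome IV, 10085742 to 10086019). The replicates gave it rank 250 with signal 537 in replicate 2 and rank 244 with signal 362 in replicate 3. The ndc-80 summit stood at -253 bp, the farthest of the 9, between ndc-80 and the cuticle collagen gene col-2, from which it lay at -433 bp. These replicate ranks differed by 6 places, the smallest difference among the members.

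The other 2 genes of the complex had lower ranks. The kbp-3 peak (the Spc25-like subunit; chromosome II, 14390114 to 14390311) ranked 1074 with signal 273, and ranked 1100 and 1119 in replicates 2 and 3. Its summit at -125 bp also lay in the window of nurf-1, which encodes a subunit of the NURF chromatin remodeller, at -510 bp. The him-10 peak (the Nuf2-like subunit; chromosome III, 5802997 to 5803312) ranked 2159 with signal 131, and 2149 and 2208 in the replicates. The him-10 and polq-1 5' ends are 100 bp apart on opposite strands. The joint and replicate 3 summits, at -105 bp from him-10, lay 5 bp inside polq-1, a DNA polymerase theta gene. That position is in an exon of polq-1, outside the coding part. The replicate 2 summit, at -89 bp, lay in the 99 bp between the genes.

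The gene of the KMN scaffold also had a strong peak. The knl-1 peak (KNL-1 binds microtubules and recruits checkpoint proteins; chromosome III, 8250334 to 8250601) ranked 395 with signal 638. In replicate 2 it ranked 382 with signal 397, and in replicate 3 it ranked 439 with signal 238. The knl-1 summit lay at -156 bp, between genes. It fell in the window of C02F5.10 too, at -995 bp from that gene.

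The MIS-12 complex, which links CENP-C to the rest of the KMN network, is represented among the members by kbp-1, which was bound, and kbp-2, which was not. The kbp-1 peak (chromosome III, 6869372 to 6869611) ranked 771 with signal 385, and 731 and 854 in replicates 2 and 3. Its summit lay at -146 bp from kbp-1 and at -27 bp from cra-1, an acetyltransferase subunit gene on the other strand, whose 5' end is 173 bp away. K04C2.8, on the same strand, held the summit in its window at -809 bp.

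No IDR summit lay in the window of kbp-2, and neither replicate's list held any region there. The joint list, called on both replicates together with 21875 regions that run far below the IDR list, held a single region in it. That region ranked 13108, with a signal value of 15.6 and a -log10 q value of 0.29, and its summit was 355 bp inside kbp-2. The nearest IDR summit was at -1606 bp (chromosome III, 4905426 to 4905526), ranked 1808 with signal 166, and ranked 1878 and 1795 in the replicates. It stood at -17 bp from F26F4.8, a gene on the same strand that ends 112 bp before kbp-2 begins. Whether kbp-2 is transcribed together with F26F4.8 is not recorded in the annotation used here.

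The peak at kbp-5, whose product copurifies with the KMN network, was weak. It lay on chromosome I, 10687031 to 10687346, and ranked 3198 with signal 79.5, and 3310 and 3182 in replicates 2 and 3. Its summit stood at -174 bp from kbp-5 and at -131 bp from ndua-13, a mitochondrial complex I gene on the other strand.

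The centromere chromatin genes were the only bound members whose peak fell in no other gene's window. The hcp-3 peak (chromosome III, 9616521 to 9616683) ranked 1486 with signal 201, and 1634 and 1357 in replicates 2 and 3, with its summit at -156 bp. Its signal was 112 in replicate 2 and 87.3 in replicate 3. A weaker region at -678 bp ranked 8195 in the joint list and recurred in both replicates' lists, outside the IDR list.

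The hcp-4 peak was the weakest of the 9, and its summit moved most between the replicates. It lay on chromosome I, 3865872 to 3866187, and ranked 3759 with signal 62.6. In replicate 2 it ranked 3475 with signal 43.5 and its summit at -91 bp. In replicate 3 it ranked 4271 with signal 20.7, its summit at -171 bp and its -log10 q value at 3.45, below the 3.90 that the other 8 member peaks had there. The mean replicate rank was 3873 ± 563 (SD, n = 2) at hcp-4, against 83.5 ± 17.7 (SD, n = 2) at kbp-4. Its replicate ranks were 796 places apart, beside a median of 604.5 places over the weaker IDR peaks, and relative to its mean rank this SD was smaller than that at kbp-4.

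**Figure D1:**
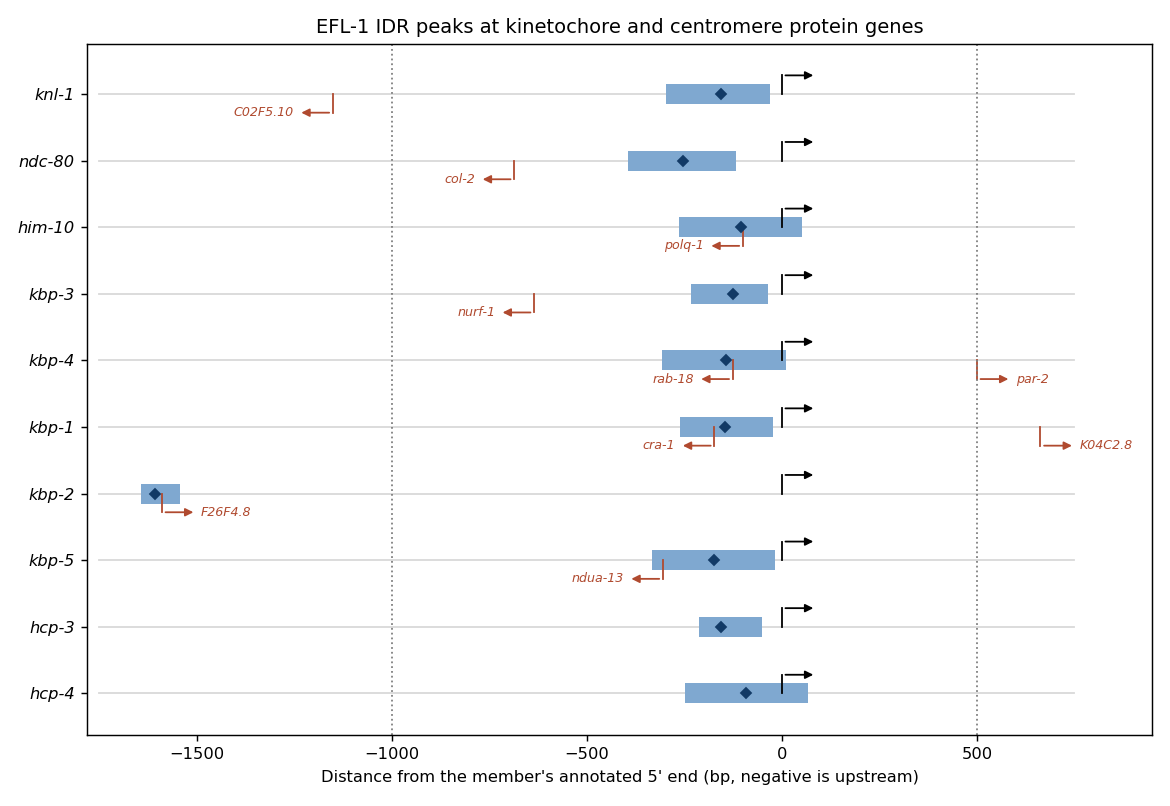
Map of the 10 genes, each drawn in its own direction with its 5' end at 0 (black arrow), on an axis in bp. Bars are IDR peaks, diamonds their joint summits, red arrows the 5' ends of other genes whose window holds the summit, and dotted lines the window limits of 1000 bp upstream and 500 bp downstream. The summits of 9 genes lie from -253 to -92 bp, and the peak drawn for kbp-2 lies at -1606 bp, beside F26F4.8.

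**Figure D2:**
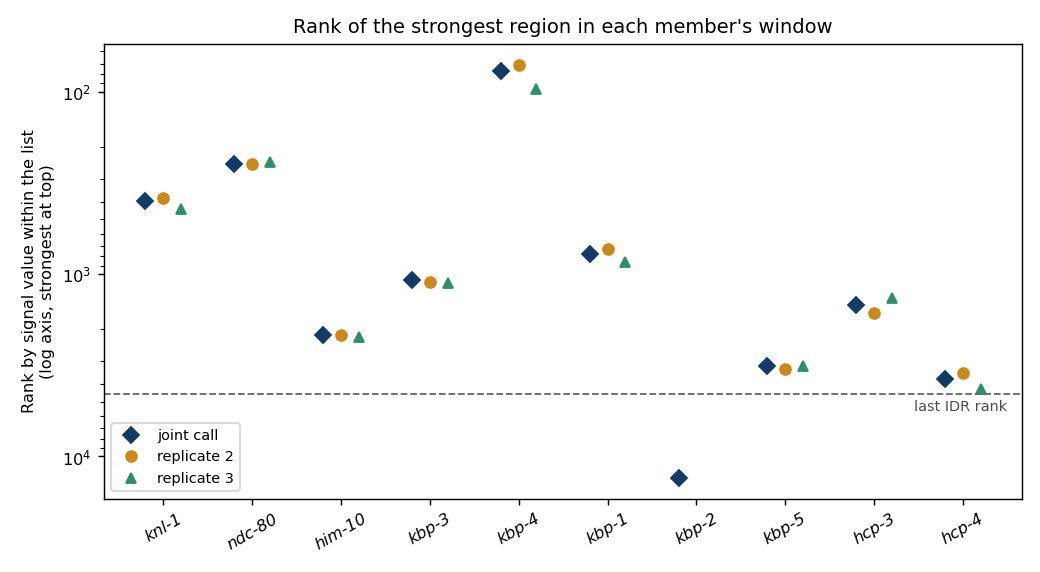
Rank by signal value (log axis, strongest at the top) of the strongest region in each gene's window in the joint call and in replicates 2 and 3. The dashed line is the last IDR rank, 4534. In the joint call the bound genes run from rank 77 for kbp-4 to rank 3759 for hcp-4. The replicate ranks are farthest apart at hcp-4, at 3475 and 4271, and kbp-2 has only a joint region, at rank 13108.

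The 9 peaks spread over much of the IDR list, as the plot of ranks shows. Their median percentile by signal was 76.3, against 60.3 for the strongest peak of all 3922 bound genes. Of the members, 7 were bound by the stronger 2267 IDR peaks, and kbp-5 and hcp-4 by weaker ones. Over all protein-coding genes, 2365 of the 3922 bound genes were bound by the stronger 2267. Ranks of joint peaks pool the replicates, so the replicates' own ranks are given beside them. The IDR list was itself thresholded on how the replicates rank their peaks, so close ranks are not an independent check. Replicate 2 gave the higher place to 6 of the 9 and replicate 3 to the other 3. In whole larvae, binding in fewer cells and weaker binding per cell cannot be told apart.

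Summit positions differed little between the replicates at all bound members but hcp-4. Between the replicates they moved by 2 to 16 bp at 8 genes and by 80 bp at hcp-4. At 7 of the 9 the move was 10 bp or less, against 43.6% of the 4525 IDR peaks that each replicate's list covered and 57.1% of those in the stronger 2267. A move of 80 bp or more occurred at 4.75% of all these IDR peaks and at 8.59% of the weaker ones, to which hcp-4 belongs.

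All 9 summits lay upstream of the 5' end, as the map of the genes shows, with a median of -146 bp. Over all bound genes the median was -215 bp and 93.1% lay upstream. The members' whole range fell between -260 and -90 bp, which held 38.1% of all bound genes; these limits were set after the members' values were seen. Each member has 1 annotated 5' end, 1 to 19 bp before its start codon. Many worm transcripts are trans-spliced, and such annotated ends can lie downstream of where transcription starts.

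Upstream neighbours lay 99 bp (him-10) to 685 bp (ndc-80) away at most members, but 1602 bp at hcp-4 and 3240 bp at hcp-3. The neighbour was on the opposite strand, at any distance, at 8 of the 10, and all 8 were bound. Over the genome 27.9% of the 9071 genes with that arrangement were bound, against 14.9% of 3612 genes with a same-strand neighbour ending within 500 bp upstream and 11.7% of 7285 with a same-strand neighbour farther off. Of the members with a same-strand neighbour knl-1, 434 bp from C02F5.2, was bound and kbp-2 was not.

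The summit lay in another gene's window at 7 of the 9 genes. Over the genome the 3922 bound genes fell on 3120 peaks. Peaks were thus shared there too, but the share of bound genes with a shared peak is not given here. When each peak was given only to the gene with the nearest 5' end, 5 members were bound (knl-1, ndc-80, kbp-3, hcp-3 and hcp-4). Over all genes 2912 were then bound in place of 3922, or 14.6%. The peaks of him-10, kbp-1, kbp-4 and kbp-5 then went to polq-1, cra-1, rab-18 and ndua-13. A peak's position does not show which of the genes beside it EFL-1 acts on.

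An E2F-like pattern, which was TTCCCGC, or instead TTCGCGC, or instead TTGCCGC, or instead TTGGCGC, on either strand, lay within 100 bp of 6 of the 9 member summits. The share among all IDR summits was 18.7%, among those with a gene 20.3% and among the stronger 2267 22.9%. The 6 were knl-1, ndc-80, him-10, kbp-3, kbp-4 and kbp-5, which takes in all 4 genes of the NDC-80 complex. A CHR-like pattern, TTTGAA or TTCGAA on either strand, lay within 100 bp of 8 summits, all but that of hcp-3, against 44.7% of all IDR summits and 49.4% of those with a gene. A match says only that the letters are present, and at hcp-3 none of the patterns named in this paragraph lay in the window. GCGCGC was found at him-10, where it overlaps TTGGCGC, against 12.3% of IDR summits, and CGCGAAA at kbp-1 and at kbp-4, where it overlaps TTCGCGC, against 7.61%.

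In 5 member peaks an E2F-like and a CHR-like match stood at most 20 bp apart without overlap. The gap was 2 bp at ndc-80, 7 bp at knl-1, 10 bp at kbp-4, 13 bp at him-10 and 14 bp at kbp-5. Such a pair lay within 100 bp of 6.68% of all IDR summits, 7.88% of those with a gene and 8.999% of the stronger 2267. At kbp-3 both patterns were present but 96 bp apart. The pair was counted after these sequences had been read, so it is a description of them.

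The E2F-like match lay on the gene side of the joint summit, meaning the side toward the member, in all 6 peaks that had it. At him-10, kbp-4 and kbp-5 a gene on the other strand had the nearer 5' end, and the match lay upstream of that end too. In all IDR peaks with a gene matches lay on both sides. Of 746, 14.3% stood 20 to 40 bp to one side and 15.4% as far to the other. At him-10 the match spans -96 to -90 bp. It thus lay upstream of the replicate 2 summit, at -89 bp. The centre of the match was 30 bp from the joint summit at knl-1 and kbp-4, and 31 bp at ndc-80 and kbp-3. It was 12 bp away at him-10 and 58 bp at kbp-5. At kbp-5 the replicate summits, at -151 and -147 bp, lay nearer the match than the joint summit at -174 bp. A centre 25 to 35 bp from the joint summit, on either side, was found for 4 of 6 matches. Over the 746 matches in all IDR peaks with a gene the share was 17.6%. On the gene side alone it was 4 of 6 against 9.25%. This distance band, too, was chosen after the members' positions were seen.

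**Figure D3:**
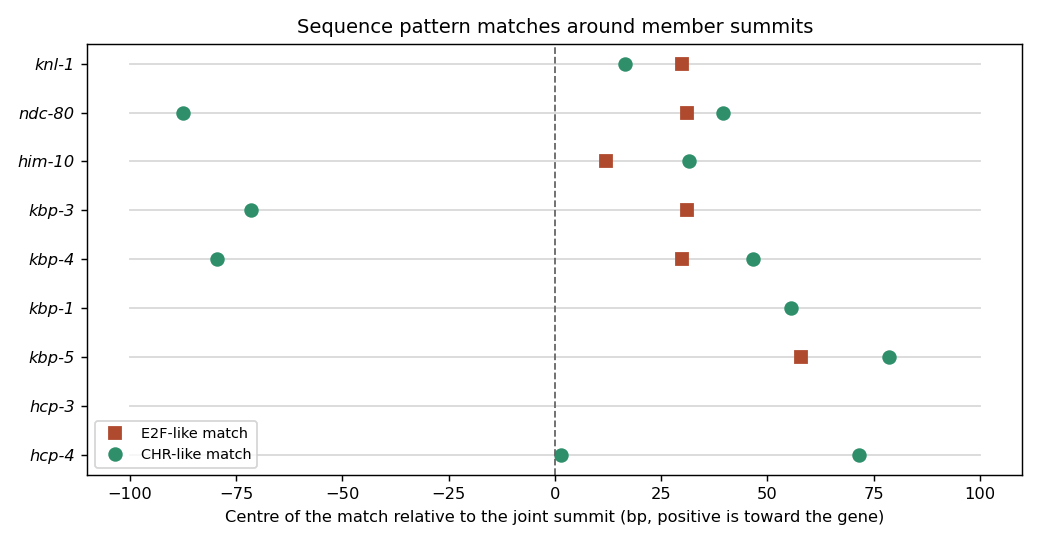
Centres of E2F-like (squares) and CHR-like (circles) matches within 100 bp of the joint summit of each bound gene, with the axis in bp and positive values toward the gene. Squares stand at 12 to 58 bp on the gene side in 6 genes, 4 of them at 30 or 31 bp, and hcp-3 has no match.

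A pair of further patterns was read off the members' own sequences and then counted in all peaks. GAGTGCA or GAGCGCA lay within 100 bp of 4 summits (knl-1, ndc-80, kbp-1 and kbp-4), against 9.20% of IDR summits. GCGTCTC lay near 3 (ndc-80, kbp-4 and hcp-3), against 19.9%. The median G+C content within 100 bp of the summit was 39.3% for the members, against 42.3% for all IDR peaks and 40.8% for those with a gene.

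Most other genes of the kinetochore and of structures that work with it were bound too. Of 13 other kinetochore genes 12 were bound, with a median percentile of 81.2. Their strongest peaks were at ska-3 (a microtubule-binding SKA complex gene, rank 95), zwl-1 (a RZZ complex gene, rank 157) and hcp-1 (a CENP-F-like gene, rank 201). The exception was cpar-1, a second CENP-A-like gene, where the joint list held a region of rank 16687 with signal 13.5. The replicate 3 list also held 1 region in the cpar-1 window. The remaining genes of the members' own complexes, mis-12 and knl-3 of the MIS-12 complex, ranked 1941 and 372. Of its 4 genes kbp-2 alone thus had no IDR summit in the window. With nearest genes only, mis-12 alone of the 4 kept a peak. The gene of KNL-2, which is needed to load HCP-3, ranked 525.

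All 9 spindle checkpoint and chromosomal passenger genes were bound, with a median percentile of 81.9. They were led by csc-1 (a passenger complex gene, rank 185), the checkpoint kinase gene bub-1 (rank 592) and the Mad2 gene mdf-2 (rank 604). Of 16 centriole and centrosome genes 13 were bound, with a median percentile of 49.9. The best ranked were sas-4 (rank 33), plk-1 (rank 527) and spd-5 (rank 544). The sas-4 summit was at -718 bp and nearer to another gene's 5' end. No joint region lay in the windows of sas-1, gip-1 and gip-2, though the replicate 3 list held 1 region in that of gip-1. With nearest genes only, 5 of the 10 members were bound, beside 8 of the 13 other kinetochore, 9 of the 9 checkpoint and passenger and 8 of the 16 centriole and centrosome genes. An E2F-like match lay within 100 bp of the summit in 6 of 9 member peaks, 10 of 12 other kinetochore peaks, 8 of 9 checkpoint and passenger peaks and 3 of 13 centriole and centrosome peaks. A CHR-like match did so in 8 of 9 member peaks, 10 of 12 other kinetochore peaks, 6 of 9 checkpoint and passenger peaks and 9 of 13 centriole and centrosome peaks. The pair of E2F-like and CHR-like matches was found in 5 of 9 member peaks, 5 of 12 other kinetochore peaks, 2 of 9 checkpoint and passenger peaks and 0 of 13 centriole and centrosome peaks. Differences between these lists were not tested.

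**Figure D4:**
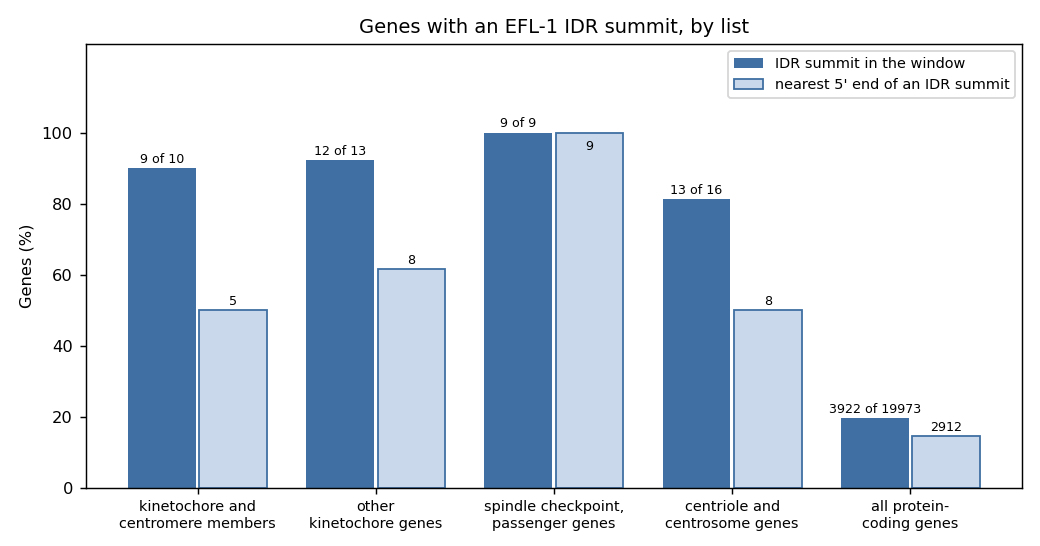
Percent of genes bound in each list and over all protein-coding genes, with the count above each bar. Dark bars count any gene whose window holds an IDR summit and pale bars only the gene with the nearest 5' end; the kinetochore and centromere members stand at 9 of 10 by the window and at 5 by the nearest 5' end.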

How the data were processed

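EFL-1 ChIP-seq peak lists of 2 biological replicates in 1 group were used, as 4 lists on the ce11 build; the 4 lists on ce10 were not used. The deposited descriptions state that the authors called a list from each replicate's alignments and a control, called a joint list on both replicates, and thresholded that joint list by IDR. The aligner, the caller and the IDR cut are not given in the sources read here. Each peak's signal value, its -log10 q value and its summit offset are the authors' own as deposited. The lists give no read totals, so the depth is unknown and no interval that needs it is given. The control experiment was not used here.

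The 4534 IDR peaks were the 4534 joint regions with the highest signal. Summits were assigned to every protein-coding gene of Ensembl release 115 with any of 29314 transcript 5' ends within the window, and a peak could count for several genes. Coordinates count from 1. Sequence came from the RefSeq assembly of the same build, and every peak ended within its chromosome length. Patterns were searched on both strands within 100 bp of joint summits. Python 3.11.15, pandas 2.3.3, numpy 2.4.6 and pyfaidx 0.9.0.4 were used, and the assignment was tested on simulated peaks. Alternatives were other windows, nearest gene only, peak overlap in place of the summit, stricter and looser lists, each replicate alone, RefSeq 5' ends and the most upstream 5' end.

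The members, the 3 comparison lists and the patterns were chosen with earlier results of these data known, and the added patterns, pairs and distance bands after the members' sequences had been seen. Named genes were the members, every gene sharing a member's peak, neighbours where a gap is given, and of each comparison list the 3 best ranked and all unbound genes; mis-12, knl-3 and knl-2 were added after their values were seen. With 1 group there was no contrast, and no test was run.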

Additional observations from a re-analysis of the deposited data

How the results depend on the processing

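The count of bound members was 9 of 10 under 7 of the 10 alternatives tried, with kbp-2 the unbound gene each time. These were 300 bp to either side, peak overlap in place of the summit, joint regions with a -log10 q value over 2, RefSeq 5' ends, the most upstream 5' end, and each replicate alone (9 to 9). It was 10 with 2000 bp upstream, where the peak beside F26F4.8 reaches kbp-2, 7 with the stronger 2267 peaks, and 5 with nearest genes only. The share of all genes bound under the same alternatives, in that order, was 12.9%, 20.5%, 24.0%, 19.4%, 18.5%, 19.4% and 19.6%, then 24.3%, 11.8% and 14.6%. The median percentile of the member peaks was 75.3 to 75.8 with a replicate left out, against 76.3 from both, and 76.3 with 300 bp or nearest genes only. CHR-like patterns were found at 5 of 9 summits within 50 bp and at 9 within 200 bp, against 24.4% and 72.1% of all IDR summits. E2F-like ones were found at 5 and 6, against 13.4% and 24.2%. No paired analysis was possible because there was 1 group. With 2 replicates and unknown depth, the weaker peaks, hcp-4 among them, are the least certain.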
